A study of Mus musculus with 15 samples.

Results

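DNA methylation was examined at 9 genes of the Hedgehog signalling pathway, the ligand genes Shh, Ihh and Dhh, the receptor genes Ptch1 and Smo, the inhibitor gene Sufu, and the transcription factor genes Gli1, Gli2 and Gli3. The genes were chosen by name, with earlier results of these data known. Their members were all CpGs inside them or within 5 kb upstream on the mm9 build. Of 241527 CpGs covered by at least 10 reads in each of the 15 libraries, 221 lay in these genes. They filled 30 of 29251 windows of 1 kb that held at least 3 such CpGs, and 8 of 12932 promoters, where a promoter takes in the CpGs up to 1 kb to either side of a start site. Shh gave 4 windows, Ihh 4, Dhh 2, Ptch1 5, Smo 1, Sufu 6, Gli1 1, Gli2 5 and Gli3 2. The promoters measured were 3 of Ptch1 and 1 each of Ihh, Smo, Sufu, Gli2 and Gli3, while those of Shh, Dhh and Gli1 did not reach this coverage in every library.

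The libraries were made by reduced representation bisulfite sequencing, which reads fragments cut from CpG-rich sequence after bisulfite has converted unmethylated cytosines. The methylation level of a CpG is the percentage of its reads that stayed unconverted. All mice were C57BL/6. Wild type cells carried Mx1-cre and floxed Dnmt3a (Mx1-cre+;Dnmt3a f/f), Dnmt3a knockout cells were Mx1-cre+;Dnmt3a-/-, and Idh2 mutant cells were Mx1-cre-;Dnmt3a f/f;Idh2 R140Q. Each was sorted as granulocyte-macrophage progenitors (GMP; Lin-cKit+, Sca1-, CD34+, Cd16/32+) and as megakaryocyte-erythroid progenitors (MEP; Lin-cKit+, Sca1-, CD34-, Cd16/32-), with 2 libraries for each genotype and cell type. The 3 double mutant libraries (Mx1-cre+;Dnmt3a-/-;Idh2 R140Q) came from malignant stem and progenitor cells sorted with the MEP gate, and there was no double mutant GMP group. The wild type, knockout and double mutant cells thus share Mx1-cre, which the Idh2 mutant cells lack. Only the double mutant cells are described as malignant, so genotype and malignant state cannot be told apart in comparisons with them. Mx1-cre is driven by an interferon-inducible promoter that is active in blood cells and also in other tissues. No source used here gives the ages of the mice or says whether the libraries of a group came from separate animals. If they did not, the p-values below measure only the spread between these samples, which may be technical.

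Hedgehog ligands bind Ptch1, which then stops holding back Smo. Active Smo frees the Gli transcription factors from Sufu, a cytoplasmic protein that binds and restrains them, and the Gli proteins switch on target genes that include Gli1 and Ptch1. The pathway patterns the embryo, and its role in adult blood formation and in leukaemia has been studied by deleting or blocking Smo. Dnmt3a is an enzyme that places DNA methylation, and the R140Q form of Idh2 produces 2-hydroxyglutarate, which inhibits enzymes that remove methylation. The levels below are methylation of DNA, and the expression of these genes was not measured here.

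The stretches of 4 windows on which the results turn are shown from the plus strand of the NCBIM37 (mm9) reference, with the measured CpGs in capitals. They were chosen to show the change of largest size at a ligand gene (Shh) and at a Gli gene (Gli2), a rise just upstream of a start site (Ihh), and the loss of methylation at Sufu. The Shh stretch, chr5:28784843-28784892, is in a coding exon. The Ihh stretch, chr1:74998256-74998377, lies just upstream of the gene. The Sufu stretch, chr19:46530342-46530500, and the Gli2 stretch, chr1:120944496-120944730, are intronic.
Shh coding exon: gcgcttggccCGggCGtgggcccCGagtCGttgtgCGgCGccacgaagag
Ihh upstream: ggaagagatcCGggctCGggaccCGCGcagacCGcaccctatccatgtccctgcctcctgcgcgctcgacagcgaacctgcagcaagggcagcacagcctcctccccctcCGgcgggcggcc
Sufu intron: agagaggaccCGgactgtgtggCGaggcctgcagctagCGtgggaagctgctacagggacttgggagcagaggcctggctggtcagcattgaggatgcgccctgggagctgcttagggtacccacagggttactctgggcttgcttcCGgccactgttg
Gli2 intron: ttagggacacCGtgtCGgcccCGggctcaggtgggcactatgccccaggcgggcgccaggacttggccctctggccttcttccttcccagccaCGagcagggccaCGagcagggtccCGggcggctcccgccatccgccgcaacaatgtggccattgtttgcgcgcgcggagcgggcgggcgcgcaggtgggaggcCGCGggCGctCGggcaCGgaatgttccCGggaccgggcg
The Shh stretch holds 8 CpGs in 50 bases, 6 of them measured in every library, and the Ihh stretch holds 12 in 122 bases, 6 of them measured. The Gli2 stretch is as dense, with 28 CpGs in 235 bases and 12 measured. The Sufu stretch is CpG-poor, with 5 CpGs in 159 bases and 4 measured.

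Read counts summed over CpGs were 30751438 to 35204906 in the wild type libraries and 20541812 to 26086791 in the knockout. They were 19306705 to 24587340 in the Idh2 mutant and 28001420 to 31657332 in the double mutant. Summed in the same way, the windows of the Hedgehog genes held 33 to 1288 reads per library. A read that covers several CpGs is counted at each of them, so separate reads can be fewer. The libraries differed by genotype in reads from the sex chromosomes. Y chromosome reads were 54.0 to 57.5 ppm of the autosomal reads in wild type, 199 to 303 ppm in knockout and Idh2 mutant and 357 to 386 ppm in double mutant libraries. X chromosome reads were 2.21 to 2.25% of the autosomal in wild type and 1.17 to 1.47% in all other libraries. The wild type libraries did not overlap with any other in X or Y reads, nor did the double mutant libraries in Y reads. In comparisons with wild type or double mutant cells these differences therefore cannot be told apart from genotype. Their part in the results was not tested. Mean methylation over the common CpGs was 41.8 to 43.0% in the double mutant libraries, above the 37.4 to 41.1% of the other 12. None of the 14 measured promoters of erythroid, megakaryocyte, granulocyte, macrophage, B and T cell marker genes was called between MEP and GMP (lowest adjusted p = 0.195, at Prtn3). In this comparison 0.0773% of all promoters and 0.328% of all windows were called. Of the marker windows 1 was called, in Prtn3 at chr10:79345001-79346000, with 21.9% in MEP and 10.1% in GMP (adjusted p = 0.00859). Of the 6 erythroid and megakaryocyte marker promoters, 1 was called in double mutant against wild type MEP, where 12.6% of all promoters were called. This was 1 of 3 Itga2b promoters, with 74.3 against 2.81%, while the median difference of the 6 was -2.56 points. Of the granulocyte and macrophage, B and T cell marker promoters, 0 of 4, 0 of 2 and 1 of 2 were called. Among marker windows, 3 of 14 erythroid and megakaryocyte, 0 of 7 granulocyte and macrophage, 4 of 14 B and 6 of 12 T cell ones were called. Of all windows 14.7% were. The deletion of Dnmt3a was not checked by these data. A change in the methylation of each cell and a change in the mix of cells cannot be told apart in such libraries.

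Across the Hedgehog genes, double mutant cells gained methylation at windows with little of it in most other groups, in Shh, Ihh, Gli2 and Gli3, and had a low level, 9.63%, at an intronic window of Sufu that was well methylated in wild type cells. The windows of Dhh, Ptch1 and Smo stayed within 10 points of each other between group means. In a test for any difference among the 7 groups, 12 of the 30 windows were called, against 17.9% of all windows. A window was called in that test at a Benjamini-Hochberg adjusted p under 0.05, from a quasi-binomial model fitted to all windows, with group means spanning at least 10 percentage points. The 12 were 4 windows of Shh, 2 of Ihh, 2 of Sufu, 3 of Gli2 and 1 of Gli3.

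**Figure D1:**
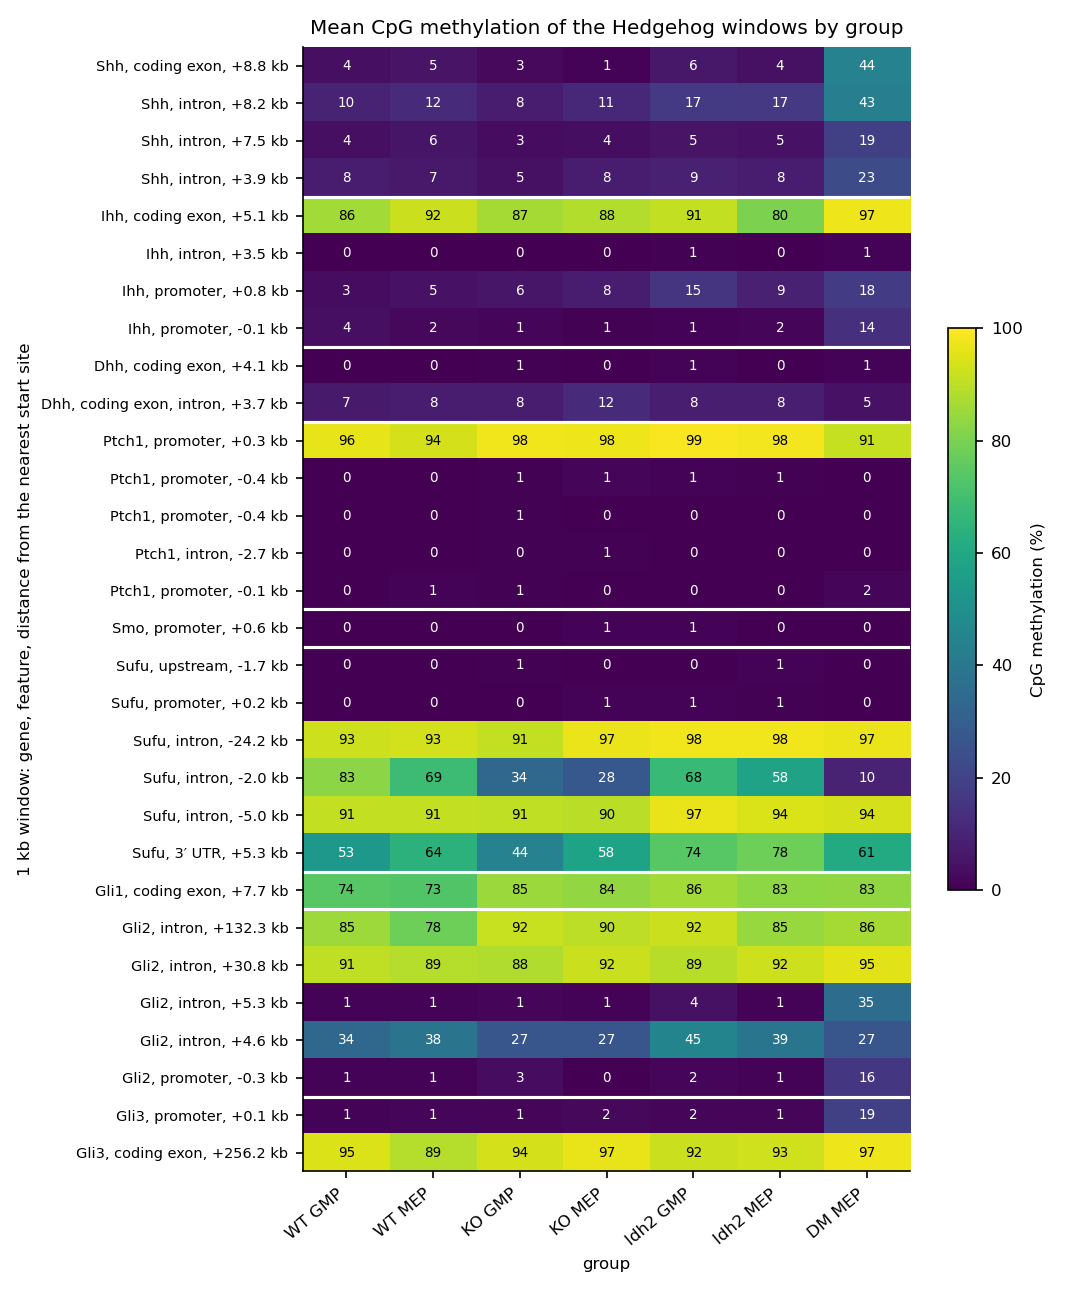
Mean methylation level in percent (colour) of the 30 windows of the 9 Hedgehog genes (rows, with the distance in kb from the nearest annotated start site) in the 7 groups (columns; WT wild type, KO Dnmt3a knockout, Idh2 the Idh2 mutant, DM the double mutant; 2 libraries each and 3 for DM). The double mutant column stands out at the Shh windows, at 2 windows of Gli2 and at the first window of Gli3, and both the knockout columns and the double mutant column are low at the Sufu intron window, at 33.5, 27.6 and 9.63%.

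Between 2 groups, a window was called at an adjusted p under 0.05 with group means at least 10 points apart. Double mutant cells differed from wild type MEP at 10 of the 30 windows, 9 higher and 1 lower, where 14.7% of all windows were called (12.6% higher and 2.07% lower). The median difference was 3.35 points over the 30 windows and 1.34 points over all windows. Double mutant against knockout MEP gave 9 higher and 1 lower, where 13.5% of all windows were called (11.7% higher and 1.82% lower). Double mutant against Idh2 mutant MEP gave 9 higher and 2 lower, where 14.5% were called (10.9% higher and 3.57% lower). The medians over the 30 windows were 1.00 and 0.818 points in these 2 comparisons, and 0.349 and 0.608 points over all windows. These 3 comparisons share the double mutant libraries, so their counts are not independent. Neighbouring windows of a gene share library and locus and are not separate replicates.

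Shh (ENSMUSG00000002633.3, chr5:28783355-28793641, minus strand) encodes the ligand sonic hedgehog. Each of its 4 windows was more methylated in double mutant cells than in every other group. The window with the largest change, chr5:28784001-28785000, held 6 CpGs of a coding exon that also lie in the noncoding gene 9530036O11Rik. Its level was 30.3, 44.3 and 58.0% in the double mutant libraries. It was 6.98 and 3.82% in wild type MEP, 1.32 and 0.467% in knockout MEP, and 2.91 and 5.83% in Idh2 mutant MEP. The GMP libraries had 4.94 and 3.10% in wild type, 4.20 and 1.08% in knockout and 10.6 and 2.17% in Idh2 mutant cells. All 3 double mutant libraries therefore lay above the other 12. The mean of 44.2% ± 13.9 (SD, n = 3) exceeded the 5.40% ± 2.23 (SD, n = 2) of wild type MEP by 38.8 points (adjusted p = 0.000215). The difference from knockout MEP was 43.3 points (adjusted p = 4.76e-05) and that from Idh2 mutant MEP was 39.9 points (adjusted p = 0.00102). In this window 94 to 380 reads were counted per library, summed over its 6 CpGs. Its single CpGs had double mutant means of 14.95% at 28784853 to 69.1% at 28784878, and wild type MEP means of 0 to 11.95%.

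The other 3 Shh windows are intronic and also overlap 9530036O11Rik. At chr5:28785001-28786000, with 10 CpGs, the double mutant libraries had 39.9, 40.8 and 47.3%. The wild type MEP libraries had 11.7 and 13.0%, the knockout MEP libraries 4.43 and 17.6%, and the Idh2 mutant MEP libraries 18.0 and 15.1%. The GMP libraries ranged from 6.05 to 18.3%, so the groups did not overlap with the double mutant. The double mutant mean of 42.7% ± 4.01 was 30.4 points above wild type MEP (adjusted p = 0.000279), 31.7 above knockout MEP (adjusted p = 0.000269) and 26.1 above Idh2 mutant MEP (adjusted p = 0.00125). At chr5:28789001-28790000 the double mutant libraries had 21.8, 29.2 and 17.4%, and the other 12 had 3.89 to 14.7%. The difference from wild type MEP was 15.8 points (adjusted p = 0.00321), and those from knockout and Idh2 mutant MEP were 14.98 and 14.99 points (adjusted p = 0.00822 and 0.0146). At chr5:28786001-28787000 the double mutant libraries had 13.6, 28.6 and 14.8% against 2.51 to 8.55% in the others. Here replicate 2 was well above the other 2 double mutant libraries. The difference of 13.3 points from wild type MEP (adjusted p = 0.0115) became 8.51 points without double mutant replicate 2, under the minimum of 10, and had an adjusted p of 0.136 without wild type MEP replicate 2. The adjusted p of the difference from knockout MEP (15.4 points, 0.0146) rose to 0.0863 and 0.105 without knockout MEP replicate 1 and 2. That from Idh2 mutant MEP (14.1 points, 0.0311) rose to 0.150 and 0.138 without Idh2 mutant MEP replicate 1 and 2, and the difference itself was 9.32 points without double mutant replicate 2. At chr5:28789001-28790000 the calls against knockout and Idh2 mutant MEP were lost without replicate 1 of these groups (adjusted p = 0.151 and 0.0899). With limma this window was not called in any of the 3 comparisons (adjusted p = 0.0543 to 0.0742), and neither was chr5:28785001-28786000 against Idh2 mutant MEP (adjusted p = 0.0521).

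**Figure D2:**
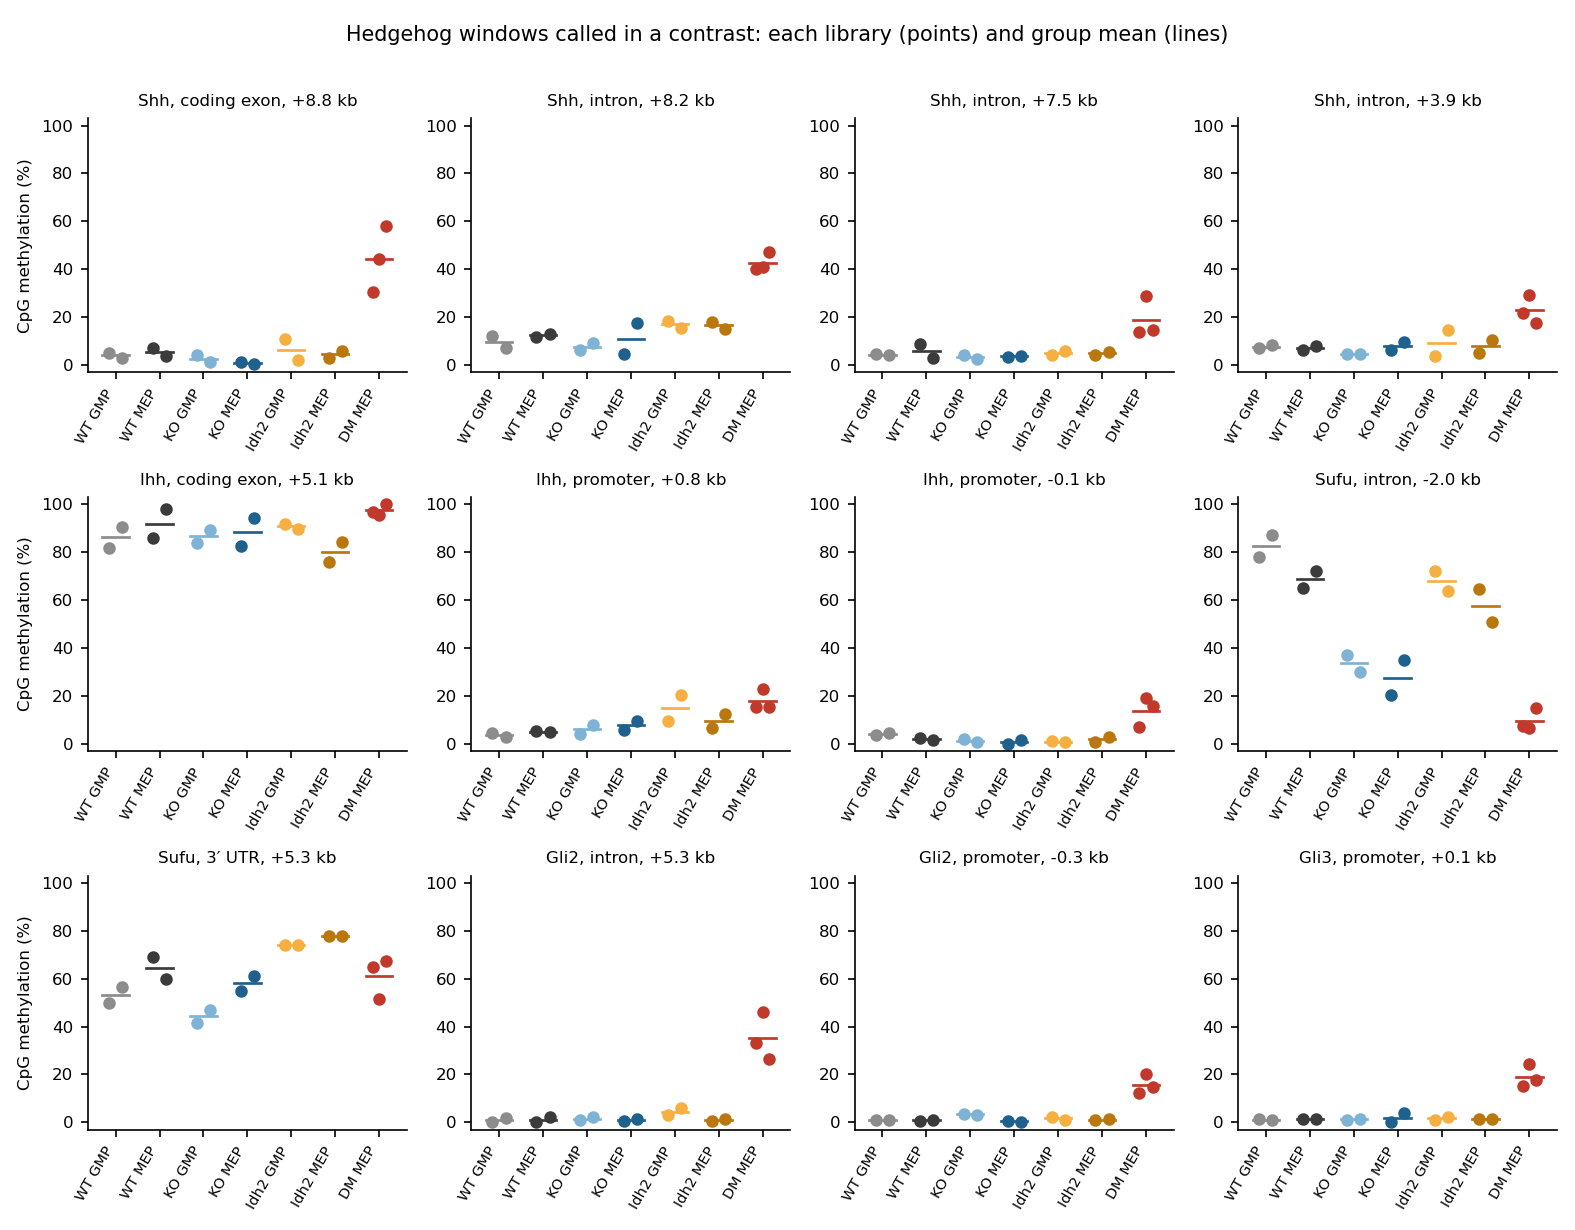
Methylation level in percent in each library (points) of the 12 Hedgehog gene windows called in at least 1 of the 6 comparisons of genotypes or of MEP with GMP, by group (WT wild type, KO Dnmt3a knockout, Idh2 the Idh2 mutant, DM the double mutant), with the group mean as a line. The 3 double mutant libraries lie above all others in the 4 Shh windows, 1 Ihh window, both plotted Gli2 windows and the Gli3 window, and at the Sufu intron window they lie at 6.64 to 14.8%, below all others. These windows were plotted because they were called, and the share of all windows with such a separation is not given here.

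Ihh (ENSMUSG00000006538.8, chr1:74991891-74998246, minus strand) encodes Indian hedgehog, a ligand best known from growing bone. Around its start site methylation was higher in double mutant cells. At chr1:74998001-74999000, where 6 CpGs lay at positions -120 to -20 from the start site, the double mutant libraries had 6.87, 18.95 and 15.6%. The MEP libraries had 2.38 and 1.69% in wild type, 0 and 1.51% in knockout and 0.714 and 2.97% in Idh2 mutant cells, and the GMP libraries 0.535 to 4.35%. The double mutant libraries lay above all 12 others, with replicate 1 the nearest to them. The mean of 13.8% ± 6.24 was 11.8 points above wild type MEP (adjusted p = 0.0102), 13.0 above knockout MEP (adjusted p = 0.000805) and 11.96 above Idh2 mutant MEP (adjusted p = 0.00597). Without double mutant replicate 2 the differences from wild type and Idh2 mutant MEP were 9.19 and 9.39 points (adjusted p = 0.0624 and 0.0505), and without wild type MEP replicate 2 the first had an adjusted p of 0.0875.

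The neighbouring Ihh window, chr1:74997001-74998000, held 12 CpGs in coding sequence and intron. It had 15.5, 22.7 and 15.3% in the double mutant libraries, 5.14 and 4.91% in wild type MEP and 5.76 and 9.54% in knockout MEP. The Idh2 mutant libraries were higher than wild type here, with 9.57 and 20.4% in GMP and 6.36 and 12.4% in MEP, so that 1 of them lay within the double mutant range. The double mutant mean of 17.8% ± 4.20 was 12.8 points above wild type MEP (adjusted p = 0.00551) and 10.2 above knockout MEP (adjusted p = 0.0226). The latter call was lost without knockout MEP replicate 1 (8.26 points, adjusted p = 0.271) or double mutant replicate 2 (7.73 points, adjusted p = 0.117), and with limma (adjusted p = 0.131). The difference of 8.43 points from Idh2 mutant MEP did not pass the test (adjusted p = 0.113). Over both cell types Idh2 mutant cells were 7.93 points above wild type (adjusted p = 0.0386), less than the minimum of 10. The Ihh promoter as a whole, with 13 CpGs at chr1:74997248-74998366, had 10.03, 21.2 and 17.0% in the double mutant libraries and 3.17% ± 0.923 in wild type MEP. The difference was 12.9 points (adjusted p = 0.000416), and those from knockout and Idh2 mutant MEP were 11.7 and 11.3 points (adjusted p = 0.000837 and 0.00179). Both of these fell below 10 points without double mutant replicate 2 (9.10 and 8.75), and limma gave the second an adjusted p of 0.0521.

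The other Ihh windows were not called against wild type or knockout MEP. A coding exon window at chr1:74993001-74994000 was methylated throughout, with 96.8, 95.6 and 100% in the double mutant libraries and 76.1 and 84.3% in Idh2 mutant MEP. The other groups had 81.7 to 98.1%, overlapping both. The 17.3 point difference from Idh2 mutant MEP had an adjusted p of 0.0448 and was not called when any of the 5 libraries was left out (adjusted p of up to 0.144). An intronic window at chr1:74994001-74995000 was at most 1.98% in every library.

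Dhh (ENSMUSG00000023000.4, chr15:98723462-98728971, minus strand), which encodes desert hedgehog, a ligand of testis and peripheral nerve, had no called window. Its coding exon window at chr15:98724001-98725000 was at most 1.79% in every library. Its other window, chr15:98725001-98726000, showed 1.53 to 13.9% over the libraries and group means of 4.85% (double mutant) to 11.8% (knockout MEP).

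Ptch1 (ENSMUSG00000021466.5, chr13:63610261-63674474, minus strand) encodes the receptor of the ligands. Of its 5 windows 4, among them those at its upstream start sites, were at most 2.78% in every library, and no comparison called any of the 5. The window at chr13:63615001-63616000, near the start of a short transcript within the gene, was 90.6 to 100% methylated. Its double mutant mean of 91.4% differed by -6.83 points from Idh2 mutant MEP, which did not pass the test (adjusted p = 0.0505). The promoter there, with 6 CpGs at chr13:63614931-63615521, had group means of 86.8% in knockout MEP to 97.9% in Idh2 mutant GMP and was called in the 7-group test (adjusted p = 0.0187). Its libraries had 97.1 and 95.2% in wild type GMP, 83.7 and 93.0% in wild type MEP, and 92.5, 93.3 and 92.7% in the double mutant. Smo (ENSMUSG00000001761.6, chr6:29685694-29711365, plus strand) encodes the transmembrane protein that relays the signal. Its window at the start site, chr6:29686001-29687000 with 8 CpGs of a coding exon, was at most 2.33% in every library. Summed over the 8 CpGs, no methylated read was found among 1277 in the double mutant libraries, nor among 920 in wild type MEP. If each count were a separate read, levels of up to 0.235% and 0.326% would be allowed, counting error only. A read that covers several of these CpGs is counted at each, so the true limits are higher where this occurs. The Smo start site and the 2 upstream Ptch1 promoters were thus nearly unmethylated in all 7 groups, while the start of the short Ptch1 transcript was methylated.

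Sufu (ENSMUSG00000025231.9, chr19:46471386-46563294, plus strand) gave the window with the smallest p-value of the 30 in the 7-group test (adjusted p = 1.47e-05). This window, chr19:46530001-46531000, holds 4 intronic CpGs at 46530352 to 46530489 with 91 to 304 reads per library summed over them. It lost methylation in Dnmt3a knockout cells of both types and more in double mutant cells. The wild type libraries had 78.2 and 87.0% in GMP and 65.0 and 72.3% in MEP. The knockout libraries had 37.0 and 30.1% in GMP and 20.4 and 34.8% in MEP. The Idh2 mutant libraries had 72.0 and 63.7% in GMP and 64.5 and 50.7% in MEP, and the double mutant libraries 7.44, 6.64 and 14.8%. The 3 double mutant libraries were the lowest of the 15, the 4 knockout libraries came next, and all wild type and Idh2 mutant libraries were at or above 50.7%.

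Over both cell types the knockout mean of 30.6% ± 7.33 (SD, n = 4) differed from the wild type mean of 75.6% ± 9.31 (SD, n = 4) by -45.1 points (adjusted p = 0.0015). It was the 1 window of 30 called in this comparison, where 1.43% of all windows were called. The call held when any of the 8 libraries was left out, with differences of -48.6 to -41.5 points. The difference was -49.1 points in GMP alone (adjusted p = 0.0154) and -41.04 points in MEP alone (adjusted p = 0.0233), comparisons in which 0.226% and 0.54% of all windows were called. A test of the difference between these 2 falls gave no call (adjusted p = 1.00). It called none of the 30 windows and none of all 29251 windows, so the absence of a call does not show equal falls. The Idh2 mutant mean differed from wild type by -12.9 points, which did not pass the test (adjusted p = 0.181). Double mutant cells, at 9.63% ± 4.50, differed by -59.0 points from wild type MEP (adjusted p = 6.69e-06) and by -48.0 points from Idh2 mutant MEP (adjusted p = 0.000179). The knockout and double mutant comparisons with wild type share the wild type MEP libraries. The difference of -18.0 points between double mutant and knockout MEP had an adjusted p of 0.0255 and lost its call without knockout MEP replicate 2 (0.204), double mutant replicate 1 (0.0631) or double mutant replicate 2 (0.0747).

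The 4 CpGs of this Sufu window did not all behave alike. At the CpG at 46530352 the mean level was 65.0% in wild type MEP, 67.5% in Idh2 mutant MEP, 27.2% in knockout MEP and 5.47% in double mutant cells. The CpGs at 46530364 and 46530380 had the same order of wild type, knockout and double mutant MEP, with 80.9, 37.6 and 4.17% at the former and 66.1, 33.0 and 0.926% at the latter. At the CpG at 46530489 the order of the last 2 was turned. Wild type MEP had 63.1%, Idh2 mutant MEP 19.6%, knockout MEP 3.70% (0 and 7.41% in its libraries) and double mutant cells 28.5% (28.6, 18.7 and 38.3%). Single CpGs here had 16 to 86 reads per library and were not tested singly.

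**Figure D3:**
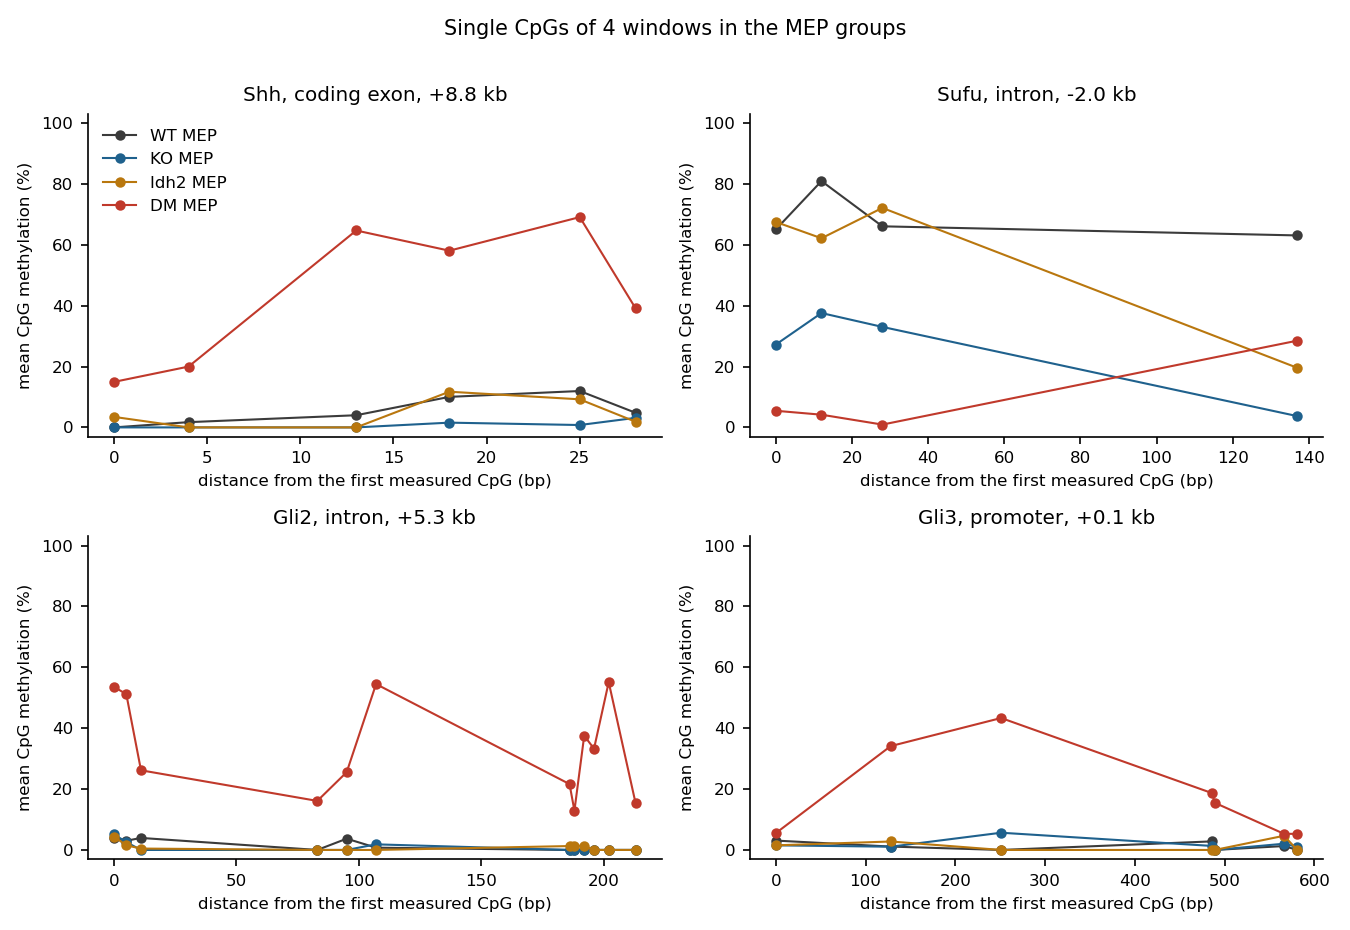
Methylation level in percent of each measured CpG in windows of Shh (coding exon), Sufu (intron), Gli2 (intron) and Gli3 (promoter), for the MEP groups, against the distance in bp from the first measured CpG. Points joined by lines are group means (WT wild type, KO Dnmt3a knockout, Idh2 the Idh2 mutant, DM the double mutant). In Sufu the double mutant is lowest at the first 3 CpGs and above the knockout at the last (28.5 against 3.70%).

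The other Sufu windows were at the ends of the scale, apart from a window in the 3′ UTR. The start site window at chr19:46471001-46472000 and an upstream window at chr19:46469001-46470000, which overlaps Actr1a, were at most 2.09% in every library. The intronic windows at chr19:46508001-46509000 and chr19:46552001-46553000 were 84.0 to 99.1% methylated and not called. The 3′ UTR window, chr19:46562001-46563000 with 3 CpGs, had 74.1, 73.9, 77.8 and 78.0% in the 4 Idh2 mutant libraries and 50, 56.5, 69.1 and 59.7% in the 4 wild type libraries. These did not overlap, while knockout libraries had 41.6 to 61.1% and double mutant libraries 64.7, 51.7 and 67.4%. The Idh2 mutant mean of 75.9% ± 2.24 was 17.1 points above the wild type mean of 58.8% ± 7.95 (adjusted p = 0.0305). It was the 1 window of 30 called in this comparison, where 3.5% of all windows were called. The call rests on all libraries together, since it held in 1 of 8 fits without a library (adjusted p of up to 0.110), and limma gave an adjusted p of 0.129. When coverage was asked of the compared libraries alone, this window was not called. In that fit 1 of 34 Hedgehog windows was called, a different one. The share of all windows called in that fit is not given here. Double mutant cells differed by -16.6 points from Idh2 mutant MEP (adjusted p = 0.0368), a call lost without either Idh2 mutant MEP library (adjusted p = 0.110 and 0.178) or double mutant replicate 2 (0.135).

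Gli1 (ENSMUSG00000025407.5, chr10:126766945-126778645, minus strand) encodes the Gli factor that is itself a target of the pathway. Its window at chr10:126770001-126771000, with 5 CpGs of a coding exon, was 70.4 to 87.9% methylated over the libraries and was not called. Group means were 74.0 and 73.0% in wild type GMP and MEP and 82.8 to 86.2% in the other 5 groups. The differences of 10.9 points between knockout and wild type and 11.1 points between Idh2 mutant and wild type did not pass the test (adjusted p = 0.117 and 0.0899).

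Gli2 (ENSMUSG00000048402.8, chr1:120730709-120950196, minus strand) encodes the main activator among the Gli factors. Methylation rose in double mutant cells at an intronic window about 5 kb inside the gene and at the start site. The intronic window, chr1:120944001-120945000 with 12 CpGs and 289 to 959 reads per library summed over them, had 33.2, 46.0 and 26.3% in the double mutant libraries. It was 0.198 and 2.09% in wild type MEP, 0.521 and 1.22% in knockout MEP and 0.434 and 1.34% in Idh2 mutant MEP, and 0.329 to 5.78% in the GMP libraries. The double mutant libraries were far above the other 12. The mean of 35.2% ± 10.01 was 34.0 points above the 1.15% ± 1.34 of wild type MEP (adjusted p = 3.12e-05). It was 34.3 points above knockout MEP (adjusted p = 9.92e-06) and 34.3 above Idh2 mutant MEP (adjusted p = 2.91e-05). Each of the 12 CpGs, shown in capitals in the Gli2 stretch, had a double mutant mean between 12.9 and 55.1%.

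At the Gli2 start site, chr1:120950001-120951000, 12 CpGs in the UTR and upstream of it had 12.1, 20.4 and 14.7% in the double mutant libraries. The other libraries had 0.276 to 3.53%, so there was no overlap. The mean of 15.7% ± 4.22 was 14.9 points above wild type MEP (0.803% ± 0.135; adjusted p = 1.74e-05), 15.4 above knockout MEP (adjusted p = 1.37e-05) and 14.6 above Idh2 mutant MEP (adjusted p = 4.48e-05). The whole Gli2 promoter, with 15 CpGs at chr1:120949717-120951114, had 27.1, 38.1 and 37.4% in the double mutant libraries. Its double mutant mean of 34.2% ± 6.14 was 25.1 points above wild type MEP (9.13% ± 0.672; adjusted p = 0.000147), 28.2 above knockout MEP (adjusted p = 6.19e-05) and 28.9 above Idh2 mutant MEP (adjusted p = 7.96e-05). These Gli2 calls held when any of the libraries compared was left out.

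The other Gli2 windows did not follow this pattern. Between the intronic window and the start site, chr1:120945001-120946000 had 24.0 to 57.6% over the libraries and group means of 26.6 to 45.3%, with no call. Deep in the gene, chr1:120746001-120747000 was called among the 7 groups (adjusted p = 0.004), with group means from 78.1% in wild type MEP to 91.9% in Idh2 mutant GMP. There knockout cells were 9.29 points above wild type (adjusted p = 0.0127), under the minimum of 10, and 12.1 points above it in MEP alone (adjusted p = 0.0371). limma did not call this window among the 7 groups (adjusted p = 0.136). The window at chr1:120848001-120849000 was 84.5 to 97.7% methylated.

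Gli3 (ENSMUSG00000021318.9, chr13:15555068-15821859, plus strand) encodes the Gli factor that mainly acts as a repressor when the pathway is off. Its start site window, chr13:15555001-15556000 with 7 CpGs, had 15.1, 24.2 and 17.5% in the double mutant libraries and 0 to 3.96% in the other 12. The double mutant mean of 18.9% ± 4.74 was 17.5 points above wild type MEP (1.42% ± 0.250; adjusted p = 0.00046), 16.9 above knockout MEP (adjusted p = 0.000304) and 17.5 above Idh2 mutant MEP (adjusted p = 0.000575). Its single CpGs differed, from 5.28% at 15555996 to 43.3% at 15555666 in the double mutant mean. The promoter of 8 CpGs had 14.7, 25.3 and 17.6% in these libraries, 18.0 points above wild type MEP (adjusted p = 0.000301). These Gli3 calls held without any 1 of the libraries compared. The other Gli3 window, a coding exon at chr13:15812001-15813000, was 82.1 to 100% methylated and not called.

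In the 7-group test 4 of the 8 promoters were called, those of Gli2, Gli3 and Ihh and the Ptch1 promoter of the short transcript, against 15.3% of all promoters. Of the 8, those of Gli2, Gli3 and Ihh were thus higher in double mutant cells than in wild type, knockout and Idh2 mutant MEP, where 12.6%, 13.9% and 12.8% of all promoters were called. The 3 Ptch1 promoters and those of Smo and Sufu were called in none of these comparisons. In the knockout and Idh2 mutant comparisons with wild type no Hedgehog promoter was called, where 0.711% and 1.59% of all promoters were. At an unadjusted p under 0.05 there were 1 and 2 of 8, against 14.1% and 16.6% of all promoters, and limma called 0 in both.

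MEP and GMP of the same genotypes did not differ at any Hedgehog window by the quasi-binomial model (lowest adjusted p = 0.271), where 0.328% of all windows were called. At an unadjusted p under 0.05 there were 4 of 30, against 6.22% of all windows, and limma also called 0. Of the promoters 0 of 8 were called by either tool, 1 of them at an unadjusted p under 0.05 (4.87% of all promoters), where 0.0773% of all promoters were called. The widest difference was at the Sufu intron window, -10.1 points in MEP against GMP (adjusted p = 0.666). In the knockout comparison with wild type, 5 of 30 windows had an unadjusted p under 0.05, against 14.8% of all windows. In the Idh2 mutant comparison there were 10 of 30, against 17.5% of all windows, and limma called 0. The median differences over the 30 windows were 0.255 and 0.715 points, near the 0.274 and 0.515 points of all windows. Both comparisons share the wild type libraries.

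The windows called higher in double mutant cells than in wild type MEP all started low. A window near full methylation had no room for the rise of 10 points that a call needs. Of 19 Hedgehog windows under 20% in wild type MEP, 9 were higher in double mutant cells, while of all windows this low 2356 of 15240 were. The 9 came from Shh, Ihh, Gli2 and Gli3. The 10 low windows without a call were 4 of Ptch1, 2 of Dhh, 2 of Sufu and 1 each of Smo and Ihh. The reference sequence held 35 to 124 CpGs in the 9 windows with a gain and 38 to 88 in those 10, so CpG number overlapped between them. Of 5 windows between 20 and 80%, 1 was called in this comparison, the Sufu intron window, which fell. Of all windows at this level 1248 of 4261 were called, 344 of them lower. Of 6 Hedgehog windows above 80% none was called, where 617 of 9750 of all such windows were. The Shh coding exon and Gli2 intron windows rose by more than 95% of all windows that started under 10%, whose limit was 26.3 points. The Sufu intron window differed by -59.0 points, where the lowest 5% of all windows starting at 60 to 70% began at -29.6 points.

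**Figure D4:**
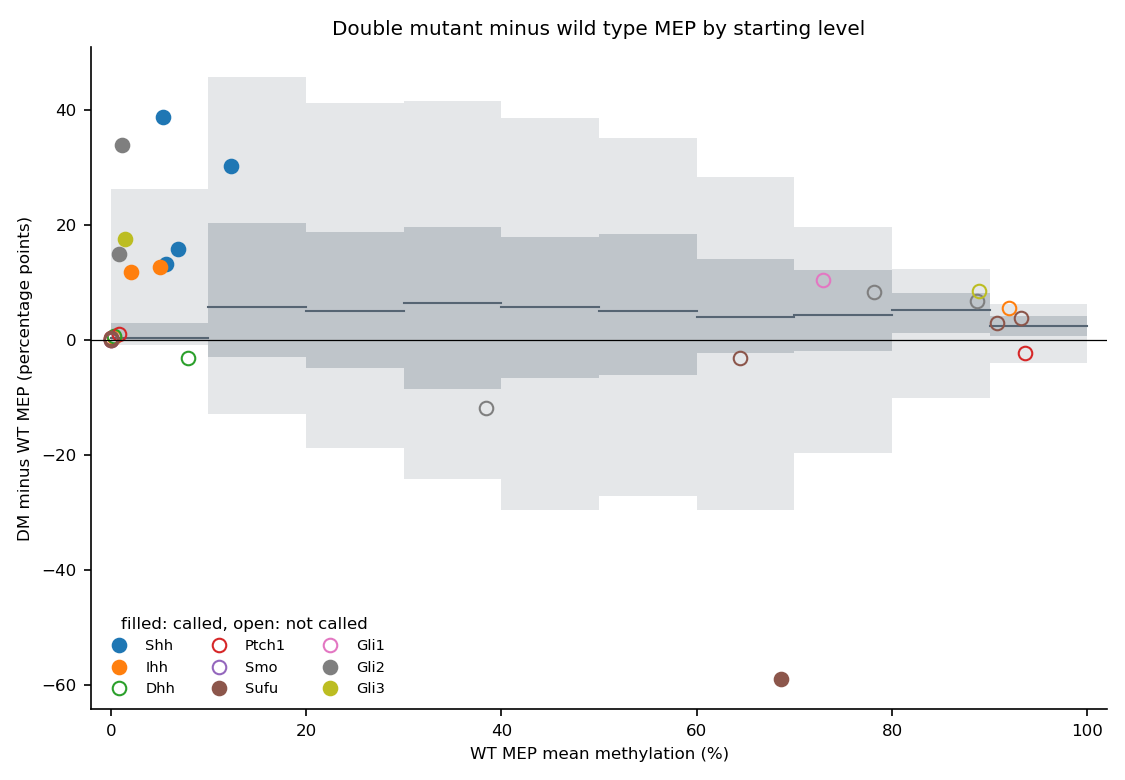
Double mutant minus wild type MEP methylation in percentage points against the wild type MEP level in percent, for the 30 Hedgehog windows (points; filled where called). The grey bands hold 25 to 75% and 5 to 95% of all windows in bins of 10%, with the median as a line; at 0 to 10% the median of all windows is 0.276 points and the upper limit of the wide band 26.3 points.

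More of the genes could be seen when coverage was asked of the compared libraries alone and the model was fitted to these. Double mutant against wild type MEP then had 52 Hedgehog windows, 22 more than above, of which 13 were called, 9 higher and 4 lower, where 11.9% of all windows were called. Among the added windows, Shh at chr5:28791001-28792000 had 49.2, 51.9 and 27.1% in double mutant libraries and 10.7 and 3.79% in wild type MEP (35.5 points higher, adjusted p = 0.0222). Smo at chr6:29709001-29710000, with 3 CpGs near the end of the gene, had 42.6, 49.2 and 45.2% against 80.3 and 84.3%, a difference of -36.6 points (adjusted p = 0.0112). Gli1 at chr10:126768001-126769000 had 52.7, 51.4 and 60.4% against 66.8 and 78.7%, a difference of -17.9 points (adjusted p = 0.046). The libraries of the 2 groups did not overlap in any of these. Gli2 at chr1:120945001-120946000, not called above, differed by -11.8 points in this fit (adjusted p = 0.0188), and the Ihh window upstream of the start site was no longer called. Of 11 promoters in this fit, the same 3 were called, where 11.6% of all promoters were. The promoters of Shh, Dhh and Gli1 could now be read and were not called, with 9.30 against 5.05% (adjusted p = 0.237), 23.6 against 20.7% (0.774) and 4.13 against 2.00% (0.100).

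Fitted in this way, double mutant against knockout MEP gave calls at 11 of 38 Hedgehog windows, where 11.6% of all windows were called, and against Idh2 mutant MEP at 9 of 41, where 11.4% were. The added Shh window was again higher in double mutant cells, with 55.2 against 2.58% in knockout MEP (adjusted p = 0.0075) and 47.0 against 12.2% in Idh2 mutant MEP (adjusted p = 0.047). The CpGs read differ between these fits, which is why the double mutant means differ. An added Gli2 window next to the start site, chr1:120949001-120950000, had 24.1% in double mutant cells against 1.91% in knockout MEP and 2.41% in Idh2 mutant MEP (adjusted p = 0.0085 and 0.009). Gli1 at chr10:126768001-126769000 differed by -21.2 points from knockout MEP (adjusted p = 0.0354), and by -6.46 points from Idh2 mutant MEP, which did not pass the test (adjusted p = 0.381).

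For the Sufu intron window, the 3 windows elsewhere with the most similar levels over the 15 libraries were found by Pearson's correlation, which is a description, since the libraries fall into genotype groups. They were chr8:26612001-26613000, with the nearest start site that of Fgfr1 (r = 0.984), chr10:126763001-126764000 in Arhgap9 (r = 0.944), and chr5:108795001-108796000, nearest to Gm10419 (r = 0.942). The Arhgap9 window had group means of 62.9% in wild type MEP, 23.0% in knockout MEP, 54.7% in Idh2 mutant MEP and 10.6% in double mutant cells. The window near Fgfr1 spanned a narrower range, 77.9, 60.1, 71.0 and 55.3% in the same groups.

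Other genes of the pathway were read from a list of 60, of which 54 had 125 windows and 47 had 55 promoters. In double mutant against wild type MEP, 27 of the 125 windows, in 14 genes, were called, 26 higher and 1 lower. This was 21.6% of them, against 14.7% of all windows, and the median difference was 1.87 points, against 1.34 over all windows. The largest was at Sfrp1, which encodes a secreted Wnt inhibitor, with 58.0% in the double mutant and 0.673% in wild type MEP (adjusted p = 2.4e-06). Boc, which encodes a co-receptor, had 52.1 and 6.81% (adjusted p = 0.000734), the transcription factor gene Zic1 43.0 and 3.24% (adjusted p = 5.18e-07), and the neural transcription factor gene Nkx2-2 41.1 and 4.07% (adjusted p = 0.000197). The fall was in Jag2, which encodes a Notch ligand, with 16.2 and 53.8% (adjusted p = 0.00315). By role, 18 of 51 windows of target genes were higher and 1 lower, 3 of 9 of co-receptors, 3 of 17 of repressors and partners and 2 of 16 of the cilium relay were higher, and none was called of 12 in ligand processing or of 20 in the kinases and ligases that act on Gli proteins. Set against the 12.6% of all windows that were higher, the share was 35.3% in target genes and 33.3% in co-receptors, and nearer to it in repressors and partners (17.6%) and in the cilium relay (12.5%). Counted by gene, calls of either direction lay in 9 of 17 measured target genes and 2 of 4 co-receptor genes. They lay in 2 of 5 genes of repressors and partners and 1 of 11 of the cilium relay. Windows of the same gene are not independent, and a gene with more windows has more occasions for a call. The share of all genes with a call is not given here, so the counts by gene have no background beside them.

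The promoters of the pathway list gave 8 of 55 higher and none lower in the same comparison, 14.5% of them and near the 12.6% of all promoters called. Sfrp1 rose by 56.4 points, Evc, which encodes a protein of the primary cilium, by 33.8, and Gas1, which encodes a co-receptor, by 23.9 points. Against knockout MEP 26 windows of the list were called, all higher (20.8% of them, against 11.7% of all windows), and against Idh2 mutant MEP 20 were higher and 4 lower (19.2% called, against 14.5%). In knockout against wild type cells 2 windows were lower, 1.6% of the list against 1.43% of all windows called, those of Jag2 (19.5 against 54.4%, adjusted p = 0.036) and of Foxa2 (31.0 against 53.7%, adjusted p = 0.046). In Idh2 mutant against wild type cells 4 windows were higher, 3.2% of the list against 3.5% of all windows called. They were in Ski by 25.8 points (adjusted p = 0.0193), in Kif7, which encodes a kinesin that regulates Gli proteins in the cilium, by 19.3 (adjusted p = 0.00168), in Nkx6-1 by 18.3 (adjusted p = 0.0277) and in Bmp4 by 13.1 (adjusted p = 0.0465). No window or promoter of the list was called between MEP and GMP by the quasi-binomial model.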

How the data were processed

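Methylation was read from the authors' deposited files, 1 per library, which list cytosines by position and strand. Reads were aligned with BSMAP 2.74 to mm9, per the submitters' processing notes, and no source used here gives trimming, removal of duplicates or conversion. The deposited counts of methylated and of all reads per cytosine were used for all tests, and the deposited methylation fraction was checked against them. Duplicates of a fragment were not recognisable as such. Limits from counts cover counting error only and take the count at each CpG as a separate read.

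Strands were added. Every autosomal CpG read at least 10 times in each of the 15 libraries was kept, and these were grouped into 1 kb windows and promoters (gencode vM1 on NCBIM37) of at least 3 CpGs. The level is methylated over all reads, with the SD over libraries. A quasi-binomial logistic model with 1 mean per group and 8 residual degrees of freedom (0.5 reads added to each side, dispersion squeezed across windows and not under 1) gave F tests of contrasts, GMP and MEP weighted equally, with Benjamini-Hochberg adjustment over all windows or all promoters. On simulated counts this test was slightly liberal for the double mutant contrast. Named were all 9 genes, each called window, the 3 windows most like the Sufu window, and called genes of the pathway list, at most 6 per comparison; the windows added by the compared-library fits were chosen after their values were seen. The members and lists were chosen with earlier results of these data known. Alternatives were a minimum of 20 reads, 500 bp windows, 25 points, limma, blocks, summed libraries, coverage in the compared libraries only, and leaving out each library. Tools were R 4.3.3 with limma 3.58.1, and Python 3.11.15 with scipy 1.17.1, numpy 2.4.6, matplotlib 3.10.9 and pandas 2.3.3.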

Additional observations from a re-analysis of the deposited data

How the results depend on the processing

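No called window or promoter changed direction at 20 reads, with coverage in the compared libraries only, with summed libraries or with a library left out. The limma, block and 25 point runs reused the main differences, so direction could not change there. With 500 bp windows only counts were compared. The counts that follow are of Hedgehog windows and promoters, and they show only how the main counts moved. Apart from the limma totals, the share of all windows or promoters called under each setting is not given here. With each library left out in turn, the windows called ranged from 10 to 13 for the 7-group test, 1 to 2 for knockout and 0 to 1 for Idh2 mutant against wild type, and 8 to 11, 7 to 10 and 7 to 10 for double mutant against wild type, knockout and Idh2 mutant MEP; the promoters ranged from 3 to 3, 2 to 3 and 2 to 3 in the last 3. MEP against GMP gave 0 windows and 0 promoters throughout. Leaving out double mutant replicate 2 cost 12 of 52 calls, more than any other library. At a difference of 25 points, double mutant against wild type, knockout and Idh2 mutant MEP kept 4, 3 and 4 windows and 1 promoter each, and Idh2 mutant against wild type 0. At 20 reads 17 windows and 5 promoters remained for testing, with 7 windows called in the 7-group test, 2 in knockout against wild type, 5, 4 and 4 in the double mutant comparisons and 1 promoter in each of these. limma called 7 windows in the 7-group test and 0 for Idh2 mutant against wild type, and GMP and MEP libraries summed gave 0 for the latter. Over all windows limma called 50 against 417 for knockout and 357 against 1025 for Idh2 mutant against wild type. Of the calls at single windows and promoters, limma lost 13 of 54 and coverage in the compared libraries only lost 8 of 42. With 500 bp windows (34) the counts were 14, 1, 1, 12, 12, 12 and 0. With the replicate number as a block they were 12, 1, 1, 10, 10, 11 and 0 for windows, and 0 for MEP against GMP with the number shared by GMP and MEP titles as the block; the block changed none of 54 calls. Deviations of same-numbered GMP and MEP libraries correlated at 0.44, -0.056 and 0.602 in wild type, knockout and Idh2 mutant cells, so the numbers were not taken to pair the samples. Median depth, summed over the CpGs of a window, was 203 reads per window and library.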
